A study of Homo sapiens with 18 samples.

Results

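Lysosomes are acid organelles in which hydrolases break down proteins, glycans, lipids and sulfated sugars. The enzymes are made in the endoplasmic reticulum, sorted by receptors to the lysosome and helped there by small activator proteins that lift lipids out of membranes. A limiting membrane rich in glycosylated proteins such as LAMP1 and LAMP2 encloses them, and the transcription factors TFEB and TFE3 drive many of their genes through a shared promoter element. GM2A encodes the GM2 activator, which presents the ganglioside GM2 to β-hexosaminidase A, and its RNA was far lower after knockdown of NAT10, the enzyme that writes N4-acetylcytidine (ac4C) on RNA. The question here was whether other lysosomal genes fell with it.

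A list of 39 genes was followed. It holds 8 proteases and peptidases, 11 glycosidases, 4 enzymes that remove sulfate, 4 hydrolases of lipids and acyl groups, 2 lipid-presenting activators, 2 cholesterol carriers, 5 membrane proteins, 2 transcription factors and progranulin. Each was mapped from its symbol to an Ensembl gene, all 39 were found among the 58302 genes of the RNA-seq table, and all 39 were among the 12982 genes with at least 1 FPKM (fragments per kilobase of transcript, scaled to the reads of the library) in at least 3 libraries. The genes were taken from a fixed list and not from their values, but GM2A was known to fall when the list was drawn up.

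The RNA came from PANC-1, a human cell line from a pancreatic ductal carcinoma, and every group had received a lentiviral short hairpin RNA vector. The control cells (shCtrl) carried what the labels call an empty vector, and the shNAT10 cells carried a vector that knocks NAT10 down. The paper lists a non-targeting short hairpin RNA among its oligonucleotides, so whether the control vector held a hairpin is uncertain. RNA-seq had 3 libraries per group, and acRIP-seq, in which RNA fragments are pulled down with an antibody against ac4C, had 3 pulled-down (IP) and 3 input libraries per group but 1 peak list per group. Which hairpin was used, and whether the libraries of a group are separate cultures or the cells a clone, is not given in the sources used here, so the p-values measure the spread between these libraries, which may be technical.

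The RNA-seq libraries held between 15831720 and 23521762 reads as recovered from the FPKM values. NAT10 itself stood at 31.57, 27.74 and 28.62 FPKM in the shCtrl libraries and at 7.92, 8.43 and 7.90 FPKM in the shNAT10 libraries, a log2 fold change of -1.84 (SE 0.08). Of 10 epithelial and PANC-1 markers, 9 reached 1 FPKM, and their summed level was 3880 to 5160 FPKM in shCtrl and 2790 to 3040 FPKM in shNAT10. Of 10 macrophage markers, 9 stayed under 1 FPKM in every library, CD163 and MARCO were at 0, and the sum was 2.96 to 3.78 FPKM in shCtrl and 1.68 to 2.16 in shNAT10. Of 10 fibroblast markers, 7 stayed under 1 FPKM, FAP was at 0, and the sum was 30.8 to 36.1 FPKM in shCtrl and 20.0 to 23.9 in shNAT10. The part of these marker shifts in the results was not tested. The library shCtrl replicate 2 stood apart: it was the highest shCtrl library for 29 of the 39 genes, with a median transcript length of 2555 nt, and the lowest for 9, with a median of 5157 nt. Over all tested genes it was the highest for 47.1% and the lowest for 40.7%, and its part in the results was not tested beyond leaving it out.

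Most of the 39 genes moved little. A gene was called lower or higher in shNAT10 at an adjusted p under 0.05 from limma on log2(FPKM + 0.1), and 13 of the 39 genes were lower, 6 were higher and 20 were not called. The share lower was 33.3% of the list and 21.2% of all tested genes, and the share higher was 15.4% of the list and 20.8% of all tested genes. GM2A and NEU1 were the only called members past a log2 fold change of -1, a bound that 3.57% of all tested genes passed, and no member passed 1. The median log2 fold change of the list was -0.15 and that of all tested genes -0.01. Without GM2A and NEU1 the median was -0.14, and 11 of 37 genes (29.7%) were lower. The shCtrl and shNAT10 libraries did not overlap for 18 genes that were lower and 7 that were higher in shNAT10, where 28.6% and 27.9% of all tested genes had such a separation. No other member fell as far as GM2A. The next largest fall, that of NEU1, left 45.2% of the control level where GM2A kept 16.7%, and the 11 further genes that were lower kept between 63.0% and 82.4%. In bulk RNA, a lower level in every cell and a lower share of cells with the RNA cannot be told apart.

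These counts depended on the libraries and on the scale. Rescaled to TPM, which moved the median of all tested genes to 0.1, 10 members were lower and 9 higher, in place of 13 and 6, and the median of the list was -0.04. Without shCtrl replicate 2, 18 were lower and 10 higher. Without shCtrl replicate 3, 9 were lower and 3 higher, and without shNAT10 replicate 1, 2 or 3 the numbers were 7 and 2, 8 and 2, and 8 and 2. The 6 genes GM2A, NEU1, SGSH, NPC1, CD63 and FUCA1 were lower, and TPP1 and CTSB higher, under every alternative in which they were tested.

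**Figure D1:**
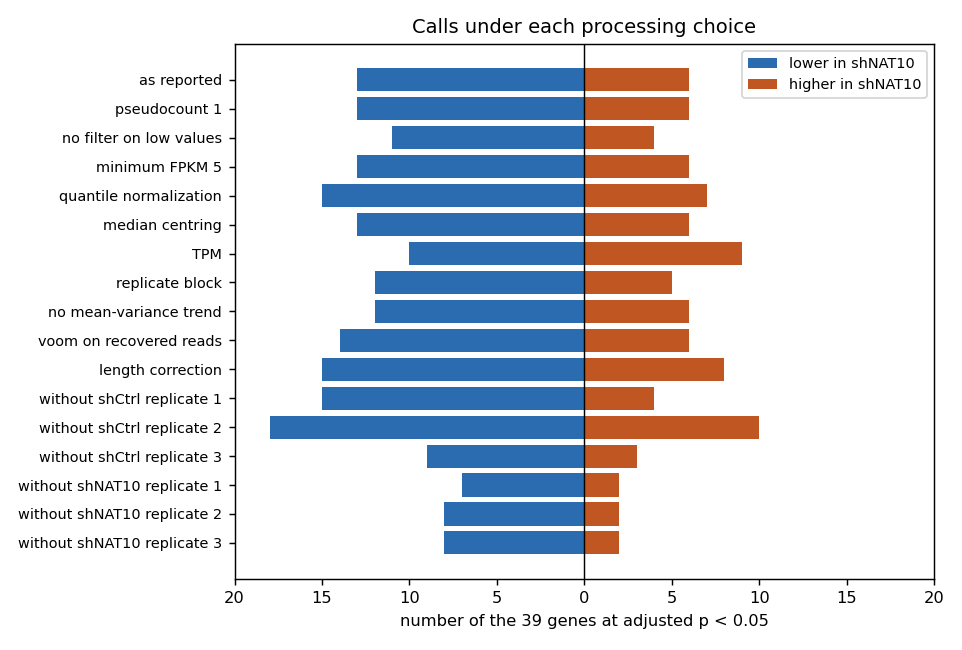
Number of the 39 genes called lower (to the left) and higher (to the right) in shNAT10 under each processing choice, with the reported fit on top. More genes are lower than higher in every row, from 7 lower and 2 higher without shNAT10 replicate 1 to 18 and 10 without shCtrl replicate 2, and the split is closest on the TPM scale, at 10 and 9.

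**Figure D2:**
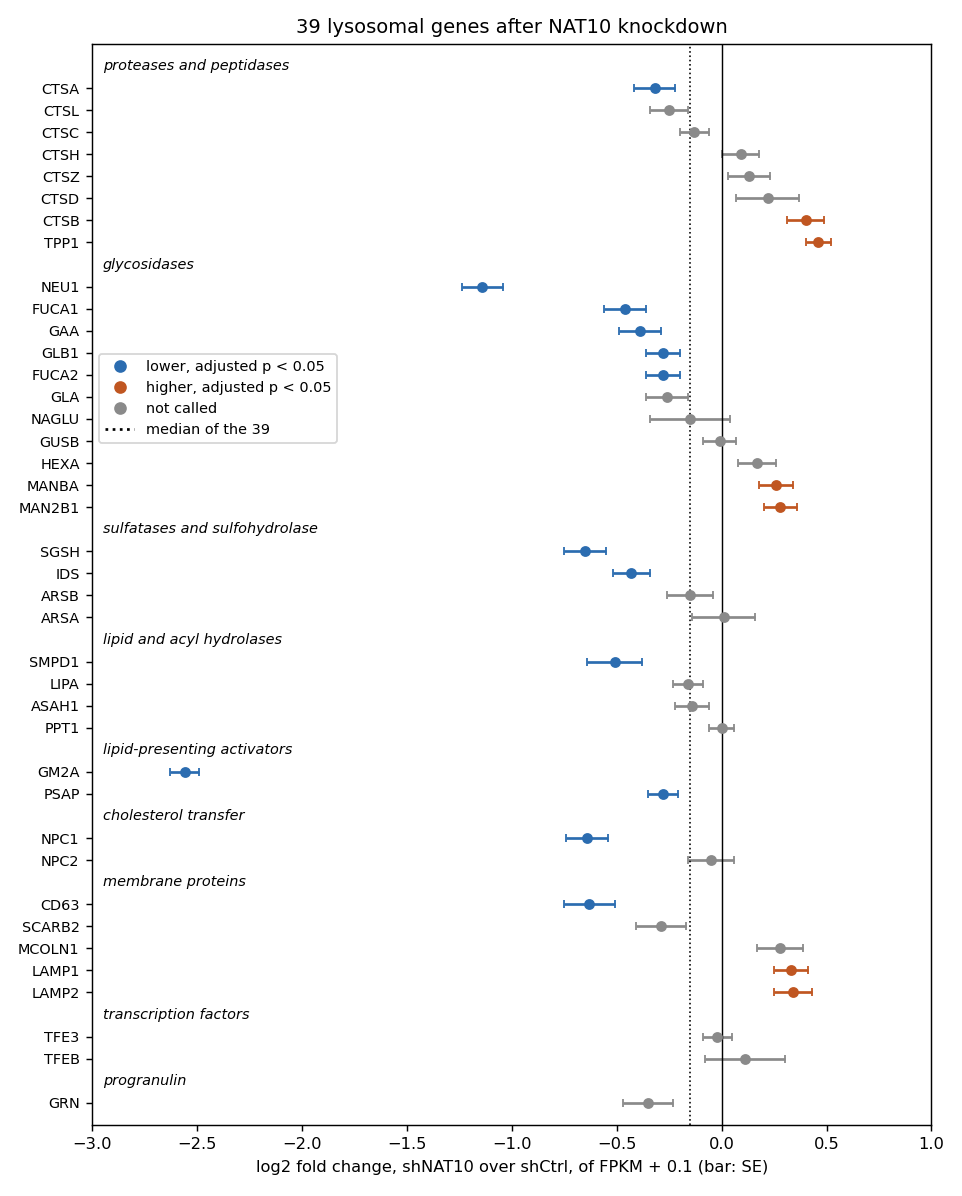
Log2 fold change of each of the 39 genes in shNAT10 over shCtrl (x axis, on log2(FPKM + 0.1)), grouped by role, with the standard error as a bar and the call by colour. GM2A at -2.56 lies far to the left of every other gene, NEU1 follows at -1.14, and the rest lie between -0.65 and 0.46.

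Among the lipid-presenting activators, GM2A stood at 25.05, 24.63 and 25.21 FPKM in the shCtrl libraries and at 4.04, 4.38 and 4.05 FPKM in the shNAT10 libraries. The groups lay far apart, each with little spread, at 25.0 ± 0.299 and 4.16 ± 0.197 FPKM (SD, n = 3 each), so that 16.7% of the control level was left. The log2 fold change was -2.56 (SE 0.07, limma adjusted p = 2.7e-05), and 12 of the 12982 tested genes had a larger fall. A two-sided exact permutation test of the FPKM gave p = 0.1, which is the floor for 3 libraries per group. PSAP, the precursor of the saposins and the most abundant of the 39 RNAs, was lower by much less, 517 ± 36.1 against 426 ± 15.3 FPKM (log2 fold change -0.28, SE 0.07, limma adjusted p = 0.022). The PSAP call was lost without shCtrl replicate 3 or any 1 of the shNAT10 libraries, without a filter on low values, and with quantile normalization, where its log2 fold change was -0.12.

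HEXA, the α subunit of the enzyme that GM2A serves, had 6.58 ± 0.559 FPKM in shCtrl and 7.41 ± 0.337 in shNAT10 and was not called (log2 fold change 0.17, SE 0.09, limma adjusted p = 0.16). Its libraries overlapped between the groups.

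Among the glycosidases, 5 of 11 (45.5%, beside 21.2% of all tested genes) were lower, 2 (18.2%, beside 20.8%) higher and 4 not called. NEU1, the lysosomal sialidase, stood at 39.72, 49.21 and 43.20 FPKM in shCtrl and at 21.50, 19.58 and 18.67 FPKM in shNAT10. Every shNAT10 library lay below every shCtrl library, and 45.2% of the control level was left (log2 fold change -1.14, SE 0.10, limma adjusted p = 0.00028). NEU1 is held in an enzyme complex with β-galactosidase (GLB1) and cathepsin A (CTSA), and both of these were lower too. GLB1 had 20.1 ± 0.944 and 16.6 ± 1.22 FPKM (log2 fold change -0.28, limma adjusted p = 0.028), and CTSA had 93.5 ± 12.1 and 74.4 ± 3.07 FPKM (-0.32, limma adjusted p = 0.036). The GLB1 call was lost under 7 of 16 alternatives, among them leaving out shCtrl replicate 1 or 3 or shNAT10 replicate 1 or 2, and the CTSA call under 6, among them leaving out shCtrl replicate 3 or any shNAT10 library.

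The fucosidases FUCA1 (log2 fold change -0.46) and FUCA2 (-0.28), and GAA, the acid α-glucosidase that digests glycogen (-0.39), were the other glycosidases that were lower. The FUCA2 call was lost on the TPM scale, with the replicate block and without shCtrl replicate 3 or any 1 of the shNAT10 libraries, and the GAA call without shNAT10 replicate 1 or 3. Both mannosidases were higher, MANBA from 4.41 ± 0.189 to 5.31 ± 0.228 FPKM and MAN2B1 from 5.50 ± 0.28 to 6.71 ± 0.294, with log2 fold changes of 0.26 and 0.28. Both calls were lost without shCtrl replicate 1 or 3 or any shNAT10 library, and without a filter on low values. That of MANBA was also lost with the replicate block and with a correction for transcript length, where its log2 fold change was 0.11. GLA (-0.26), GUSB (-0.01) and NAGLU (-0.15), which cleave α-galactose, glucuronic acid and N-acetylglucosamine, were not called, with limma adjusted p of 0.064, 0.95 and 0.56.

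Among the enzymes that remove sulfate, SGSH and IDS, which both act on heparan sulfate, were lower. SGSH stood at 4.32, 4.89 and 4.56 FPKM in shCtrl and at 3.11, 2.88 and 2.68 FPKM in shNAT10. The libraries did not overlap, although both levels were among the lowest of the 39 (log2 fold change -0.65, SE 0.10, limma adjusted p = 0.0026). IDS was lower by 0.43 on the log2 scale, from 27.4 ± 2.44 to 20.2 ± 1.42 FPKM (SE 0.09, limma adjusted p = 0.0093), a call that was lost on the TPM scale alone. ARSA (0.01) and ARSB (-0.15), the arylsulfatases, were not called.

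Among the hydrolases of lipids, SMPD1, the acid sphingomyelinase, stood at 9.03, 12.86 and 9.83 FPKM in shCtrl and at 7.19, 7.22 and 7.59 FPKM in shNAT10. The shNAT10 libraries were tightly grouped below all shCtrl libraries, of which replicate 2 was well above the other two (log2 fold change -0.51, SE 0.13, limma adjusted p = 0.02). That call was lost when any of the 3 shNAT10 libraries was left out. LIPA, the acid lipase (-0.16), ASAH1, the acid ceramidase (-0.14), and PPT1, which removes palmitate from proteins (0.00), were not called.

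Of the cholesterol carriers, NPC1, the membrane protein that exports cholesterol, was lower, and NPC2, the soluble protein that hands cholesterol to it, was not called. NPC1 stood at 20.48, 16.17 and 19.57 FPKM in shCtrl and at 12.09, 11.13 and 12.52 FPKM in shNAT10. No libraries of the groups overlapped, with 63.6% of the control level left (log2 fold change -0.64, SE 0.10, limma adjusted p = 0.0032). NPC2 had 27.8 ± 3.75 and 26.6 ± 1.38 FPKM (log2 fold change -0.05, SE 0.11).

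The membrane proteins moved in both directions. CD63, a tetraspanin of late endosomes and lysosomes, stood at 195.19, 271.54 and 218.60 FPKM in shCtrl and at 148.46, 149.67 and 140.50 FPKM in shNAT10. All shNAT10 libraries lay below all shCtrl libraries, whose replicate 2 was the highest (log2 fold change -0.63, SE 0.12, limma adjusted p = 0.006). LAMP1 and LAMP2, the main glycoproteins of the lysosomal membrane, were higher, from 40.5 ± 4.14 to 50.9 ± 1.37 FPKM and from 62.4 ± 6.04 to 78.5 ± 3.06 FPKM, with log2 fold changes of 0.33 and 0.34 (limma adjusted p = 0.019 for each). Both calls were lost when any of the 3 shNAT10 libraries was left out, and that of LAMP1 also without shCtrl replicate 3 and with the correction for transcript length. SCARB2, the receptor that carries glucocerebrosidase to lysosomes (-0.29), and the calcium channel MCOLN1 (0.28) were not called, with limma adjusted p of 0.086 and 0.076.

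Of the proteases and peptidases, only CTSA was lower, and 2 were higher. TPP1, the tripeptidyl peptidase, was at 78.25, 72.57 and 77.74 FPKM in shCtrl and at 105.80, 103.42 and 104.61 FPKM in shNAT10, the largest rise among the 39 genes (log2 fold change 0.46, SE 0.06, limma adjusted p = 0.0014). CTSB, a cysteine protease, was higher in every shNAT10 library, 59.3 ± 6.08 against 77.9 ± 2.41 FPKM (log2 fold change 0.40, SE 0.09, limma adjusted p = 0.01). CTSC, CTSD, CTSH, CTSL and CTSZ had log2 fold changes between -0.25 and 0.22 and were not called. The control level of CTSD ranged from 97.23 FPKM in shCtrl replicate 1 to 151.63 FPKM in shCtrl replicate 2, a spread larger than the difference between the groups, and without shCtrl replicate 2 CTSD was called higher (log2 fold change 0.40). Other annotated genes on the same strand cover 41.71% of the exon bases of CTSD, 11.55% of those of TPP1, 21.19% of MAN2B1, 17.39% of IDS and 12.62% of NAGLU, so that the assignment of their reads is less certain. Genes on the other strand cover 28.48% of the exon bases of CTSA, 23.37% of PPT1, 16.9% of FUCA2, 15.77% of CTSD and 12.98% of HEXA. Whether reads were counted by strand is not known here. GM2A and NEU1 share no exon bases with other genes on either strand.

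GRN encodes progranulin, a precursor of lysosomal granulins. It stood at 75.0 ± 11.7 FPKM in shCtrl and at 58.6 ± 4.7 FPKM in shNAT10 with no overlap of libraries, and fell just short of the threshold (log2 fold change -0.35, SE 0.12, limma adjusted p = 0.054). It was lower past the threshold under 7 of 16 alternatives.

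**Figure D3:**
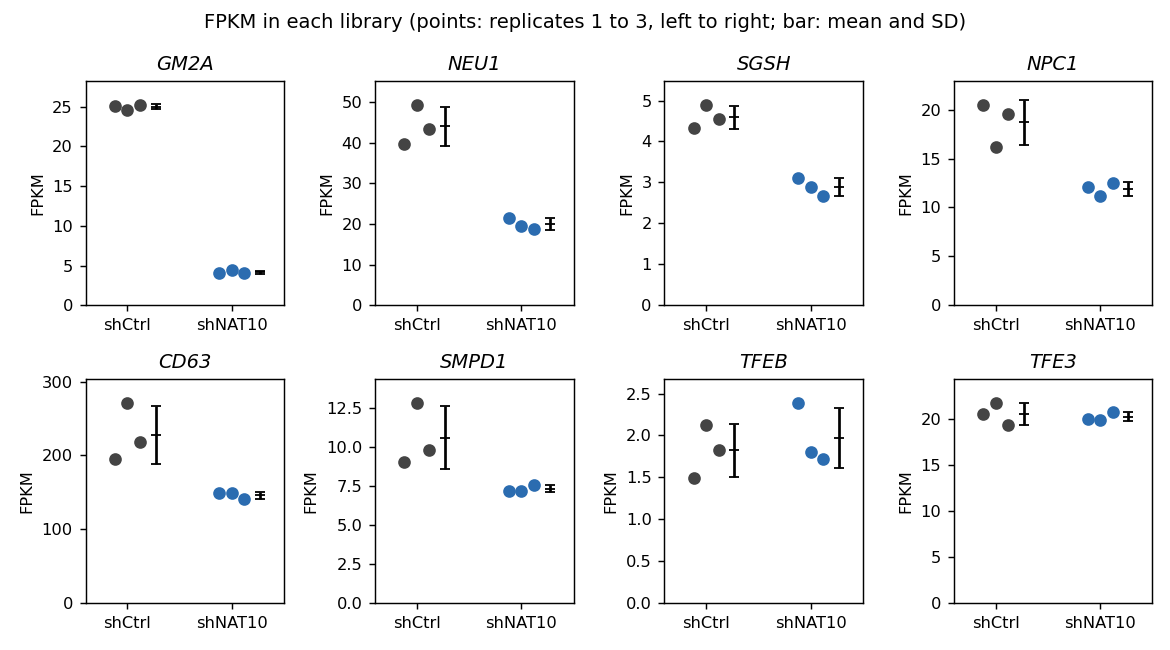
FPKM (y axis, from 0) in each of the 3 shCtrl and 3 shNAT10 libraries for the 6 genes that were called with a log2 fold change of at least 0.5 in size and for TFEB and TFE3, with the mean and SD as a bar. The groups are apart for the 6 called genes, from GM2A at 25.0 and 4.16 to SMPD1 at 10.6 and 7.33, and overlap for TFEB and TFE3.

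The RNAs of the transcription factors did not differ beyond the spread of the libraries. TFEB stood at 1.49, 2.13 and 1.83 FPKM in shCtrl and at 2.39, 1.80 and 1.72 FPKM in shNAT10, the lowest level of the 39 genes, and the libraries overlapped (log2 fold change 0.11, SE 0.19, limma adjusted p = 0.67). TFE3 stood at 20.53, 21.72 and 19.27 FPKM in shCtrl and at 19.99, 19.87 and 20.74 FPKM in shNAT10 (log2 fold change -0.02, SE 0.07, limma adjusted p = 0.84). Both proteins are controlled by phosphorylation and by their place in the cell, which RNA levels do not show.

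TFEB and TFE3 bind the coordinated lysosomal expression and regulation (CLEAR) element, whose core is CACGTG. The core was searched in the RefSeq promoter table (GRCh38.p14, 250 bases before to 50 bases after each start site), which holds 30 of the 39 genes. CACGTG is its own reverse complement, so a match counts for both strands. It was present in 7 of the 30 promoters (23.3%), against 7.43% of all 27305 promoters and 10.4% of the promoters of tested genes. The longer TCACGTGA, which contains it, was present in 4 (13.3%), against 1.04% and 2.02%. A match is a description of the letters and not of binding.

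By RNA-seq call, the core was present in 4 of 11 promoters of genes that were lower, in 1 of 3 of genes that were higher and in 2 of 16 of genes that were not called. The lower genes with the core were NEU1, CTSA, GAA and CD63, the higher gene was LAMP1, and the others were CTSD and MCOLN1. No match lay in the window of GM2A. LAMP1 held the core 6 times, more than any other member, and was higher in shNAT10. The stretches that hold the core wholly before the start site are shown here because they let genes with the same element and different directions be compared, with the core in capitals, 5′ to 3′ on the strand of the gene and with positions on GRCh38.p14.
NEU1 (lower), minus strand, chr6:31862930-31862959: atgctgcgtgatCACGTGggaggagatgag
CTSA (lower), plus strand, chr20:45891281-45891327: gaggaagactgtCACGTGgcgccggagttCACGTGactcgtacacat
GAA (lower), plus strand, chr17:80101493-80101567: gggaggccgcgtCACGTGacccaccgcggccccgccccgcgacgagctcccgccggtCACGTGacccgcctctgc
CD63 (lower), minus strand, chr12:55729172-55729201: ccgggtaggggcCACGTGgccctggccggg
LAMP1 (higher), plus strand, chr13:113297035-113297228: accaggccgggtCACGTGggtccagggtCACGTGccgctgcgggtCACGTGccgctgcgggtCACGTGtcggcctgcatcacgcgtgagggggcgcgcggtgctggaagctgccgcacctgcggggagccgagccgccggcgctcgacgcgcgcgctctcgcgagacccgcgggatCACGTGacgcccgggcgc
CTSD (not called), minus strand, chr11:1763957-1763986: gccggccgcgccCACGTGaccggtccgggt
MCOLN1 (not called), plus strand, chr19:7522571-7522623: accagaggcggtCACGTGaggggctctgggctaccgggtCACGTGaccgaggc

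The rest of the pathway was read from 6 further lists, in all 186 genes of which 166 were tested. Of these, 42 were lower and 37 higher, 25.3% and 22.3% against 21.2% and 20.8% of all tested genes, and their median log2 fold change was -0.03. On the TPM scale 31 were lower and 49 higher. Without shNAT10 replicate 3 the counts were 27 lower and 24 higher, and without shNAT10 replicate 1 or 2 the genes that were higher numbered 21 and 22.

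Of 26 other lysosomal hydrolases, 8 (30.8%, beside 21.2% of all tested genes) were lower and 4 (15.4%, beside 20.8%) were higher. The median of this list was -0.13. The largest falls were those of RNASET2, an acid ribonuclease, from 3.82 ± 0.665 to 1.54 ± 0.112 FPKM (log2 fold change -1.25), of GGH, which trims folate polyglutamates, from 25.5 ± 2.53 to 11.2 ± 0.74 FPKM (-1.18), and of IDUA, the iduronidase that acts on the same chains as IDS, from 7.80 ± 0.252 to 3.91 ± 0.567 FPKM (-0.99). CTSV, a cysteine protease, was higher, from 6.73 ± 0.433 to 12.1 ± 0.813 FPKM (0.83). Of 28 other lysosomal membrane proteins and transporters, 11 (39.3%) were lower and 5 (17.9%) higher, with a median of -0.06. On the TPM scale 7 of them were lower and 8 higher. SLC29A3, a nucleoside transporter, was at -1.64 and SLC36A1, an amino acid transporter, at -1.02. CD164 and the chloride channel subunit OSTM1 were higher, at 0.71 and 0.63.

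Among 18 subunits of the V-ATPase, the proton pump that acidifies lysosomes, 6 (33.3%) were lower and 3 (16.7%) higher (median -0.08). ATP6V0B fell from 21.8 ± 4.1 to 9.63 ± 0.29 FPKM (log2 fold change -1.15) and ATP6V0E2 was at -0.82. ATP6V1G2, counted among the 6, had a log2 fold change of -1.77 at a mean of only 1.63 FPKM in shCtrl. In shNAT10 it was at 0.28, 0.58 and 0.39 FPKM, so it met the filter of 1 FPKM in 3 libraries only through shCtrl, where it is high. Its log2 fold change ran from -1.99 to -0.89 under the alternatives, and this fall carries little weight. ATP6V1G1, another form of the same subunit, was higher, from 43.6 ± 3.9 to 69.9 ± 4.17 FPKM (0.68), as was ATP6V1E2 (1.13). Of 31 genes for sorting enzymes to lysosomes, 12 (38.7%, beside 20.8% of all tested genes) were higher and 5 (16.1%, beside 21.2%) were lower, with a median of 0.20. On the TPM scale 15 were higher and 3 lower, and without shCtrl replicate 3 or any shNAT10 library 7 were higher and 3 or 4 lower. IGF2R, the large mannose 6-phosphate receptor that carries hydrolases to endosomes, was at 22.6 ± 4.78 FPKM in shCtrl and 46.3 ± 1.61 FPKM in shNAT10 (log2 fold change 1.06, SE 0.15, limma adjusted p = 0.0018). GGA2, an adaptor of the same route, was lower at -0.82, and the adaptor subunits AP1G1 and AP3D1 were at -0.85 and 0.69.

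Of 28 genes for nutrient sensing at the lysosome, 6 (21.4%) were lower and 4 (14.3%) higher (median -0.07). Of all tested genes 21.2% were lower and 20.8% higher, so the share lower was near that of all tested genes. LAMTOR3, a subunit of the Ragulator scaffold, was at -1.24, and RRAGC, a Rag GTPase that recruits mTORC1, was at -1.01. NPRL3, of the GATOR1 complex that restrains the Rag GTPases, and FNIP2, a partner of folliculin, were higher at 0.45 and 0.94. Of 35 genes for autophagy and tethering, 6 (17.1%, beside 21.2%) were lower and 9 (25.7%, beside 20.8%) higher (median 0.06). RAB7A, the GTPase of late endosomes, was at 124 ± 3.33 FPKM in shCtrl and 61.8 ± 0.714 FPKM in shNAT10 (log2 fold change -1.01, SE 0.06, limma adjusted p = 6.8e-05), and MAP1LC3A and ATG12 were at -1.12 and -0.93. BECN1 and WIPI2, which act early in autophagosome formation, were higher at 0.65 and 0.56. The genes named from these lists, all at a limma adjusted p under 0.05, kept their calls under every alternative in which they were tested, except FNIP2, whose call was lost without shNAT10 replicate 1 or 3.

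In the acRIP-seq lists, peaks mark stretches of RNA enriched by the ac4C antibody over input. With 1 list per group the peaks cannot be tested against replicates, and the fold enrichment is given as the peak caller wrote it. In shCtrl 36 of the 39 genes had at least 1 peak (92.3%), and in shNAT10 31 had (79.5%), where 49.6% and 47.7% of all tested genes had one. Expression differs between these sets: among tested genes at 20 FPKM or more in shCtrl the shares were 68.6% and 66.6%, and among the 22 members at that level 22 and 20 genes had a peak. All 31 genes with a shNAT10 peak had a shCtrl peak too. Of all tested genes, 6187 had a shNAT10 peak and 4377 a peak in both lists. In the stronger 50% of each list, some members had a peak in shNAT10 only. By fold enrichment these were 3 genes, with 11 in shCtrl only, and by p-value 1 and 5. GUSB, FUCA1, ARSB, MCOLN1 and TFE3 had a peak in shCtrl only, a pattern of 15.8% of all tested genes, and NAGLU, SGSH and TFEB had none in either list.

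The number of member peaks was 125 in shCtrl and 123 in shNAT10. Of these, 79 (63.2%) and 75 (61.0%) overlapped a peak of the other list by at least 1 base, whereas over all tested genes 25.5% and 27.3% did. At 20 FPKM or more in shCtrl, 72.9% of the shCtrl peaks of members and 33.3% of those of all tested genes overlapped. When an overlap had to take in 50% of each of the peaks, the member shares were 32.0% and 32.5%. Peak midpoints on the longest coding transcript lay in the coding sequence for 57.4% of member peaks in each list, beside 57.2% and 57.3% over all genes.

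Peak numbers were set beside the RNA-seq calls. The 13 genes that were lower had 36 peaks in shCtrl and 40 in shNAT10, with more in shCtrl for 4 genes, more in shNAT10 for 4 and equal numbers for 5. The 6 genes that were higher had 24 and 27 peaks, and the 20 genes not called had 65 and 56. GM2A, with the largest fall in RNA, kept both of its peaks, which lie after the stop codon. In shCtrl they were at chr5:151267514-151268022 and chr5:151268261-151268559 on GRCh38, with fold enrichments of 65.7 and 11.3, and in shNAT10 at chr5:151267604-151267962 and chr5:151268201-151268529, with 1100 and 5.48. The peaks of each pair overlap. Fold enrichment is a ratio of IP over input, and the part of the lower GM2A RNA in these values was not tested.

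NEU1 had 1 peak in shCtrl, at chr6:31859426-31859965 with a fold enrichment of 19.8, and 4 in shNAT10, of which 1 overlaps it. SMPD1 had 2 peaks in each list and none in common. Its shCtrl peaks lay in the last part of the coding sequence, with fold enrichments of 119 and 2790, and its shNAT10 peaks near the start, with 41.8 and 13.9. The log10 p written by the peak caller was -496 and -1070 for the shCtrl peaks and -6.94 and -2.04 for the shNAT10 peaks. IDS went from 4 to 9 peaks while its RNA was lower. FUCA1, also lower, lost its single peak (fold enrichment 193), and PSAP, also lower, kept 4 peaks in each list, each overlapping the other list, with fold enrichments between 1.91 and 5.09. Among the genes that were higher, TPP1 had 7 and 8 peaks with 6 overlapping in each list, and MANBA had 4 and 1 with none overlapping. For the 31 genes with peaks in both lists, the highest fold enrichment of the gene was larger in shCtrl for 20 and in shNAT10 for 11. The same count was not made over all tested genes, so whether this split is particular to the members was not tested. The median fold enrichment of member peaks was 38.9 in shCtrl and 22.6 in shNAT10, beside 49.3 and 45.2 for all peaks.

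Of the member peaks in the coding sequence, 2 were unbroken by an intron, within 300 bases and wholly coding, and both were listed in only 1 group. They are shown as stretches in which the lists differ, 5′ to 3′ on the strand of the gene, from the GENCODE v29 transcripts on GRCh38. The peak on GLA, whose RNA was not called, was in shCtrl only (fold enrichment 20.2, 45 cytidines in 180 bases), and the peak on NEU1, whose RNA was lower, was in shNAT10 only (4.22, 71 cytidines in 210 bases).
GLA, shCtrl only, minus strand, chrX:101397833-101398012: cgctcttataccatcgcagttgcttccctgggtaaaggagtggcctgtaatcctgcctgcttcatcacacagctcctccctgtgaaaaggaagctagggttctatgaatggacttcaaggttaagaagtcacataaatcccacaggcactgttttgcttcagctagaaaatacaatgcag
NEU1, shNAT10 only, minus strand, chr6:31860055-31860264: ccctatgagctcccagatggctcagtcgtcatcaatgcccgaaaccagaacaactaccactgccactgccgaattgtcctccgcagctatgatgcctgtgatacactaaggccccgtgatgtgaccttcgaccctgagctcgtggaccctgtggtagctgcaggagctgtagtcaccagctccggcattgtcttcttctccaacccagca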

How the data were processed

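The RNA-seq values are FPKM as deposited by the authors, 1 column per library (3 shCtrl, 3 shNAT10). Per the labels' processing notes, HISAT2 and HTSeq 0.11.0 were used on GRCh38. The acRIP-seq lists deposited by the authors give a fold enrichment (ratio of IP over input) and the logarithm of a p-value per peak, 1 list per group. The peak caller is not given in the sources used here.

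Reads behind the FPKM were recovered with the longest GENCODE v29 transcript length of each gene that gave whole reads. For tested genes where none did, another length that gave whole reads was searched. With these lengths 99.7% of values above 0 came out whole (within 0.1 of a read), a share that this choice raises. With the longest transcript of every gene it was 97.6%. Expression was tested with limma 3.58.1 (R 4.3.3) on log2(FPKM + 0.1), with a mean-variance trend, for genes at 1 FPKM or more in at least 3 of 6 libraries, with Benjamini-Hochberg adjustment. A fold change on this scale understates the change of low genes. Groups follow the labels. Library values are given for GM2A, TFEB, TFE3, members with an adjusted p under 0.05 and a log2 fold change of at least 0.5 in size and, chosen after their values were seen, TPP1 and the control range of CTSD. From each further list the 3 lowest and 3 highest called genes could be named, and a gene left unnamed is not reported here. Members and lists were chosen with earlier results of these data known.

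Peaks were placed on the longest coding transcript by the middle base and counted as overlapping from 1 base on the same strand. Of the inner block starts of shCtrl peaks, 99.7% lay at annotated exon starts. Python 3.11.15 and SciPy 1.17.1 were used. The fit was tested on simulated data. Alternatives were each library left out in turn, a block for the replicate number, TPM, median centring, quantile normalization, no trend, a pseudocount of 1, a minimum of 5 FPKM or none, the stronger 50% of each peak list by fold enrichment or by p-value, and a 50% overlap. Voom (limma) on the recovered reads, a correction for transcript length and the bound of 20 FPKM for peaks were chosen after the data had been seen.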

Additional observations from a re-analysis of the deposited data

How the results depend on the processing

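No called member reversed its direction under any alternative run, and GM2A kept its call under all 16, with log2 fold changes from -2.60 to -2.33, and from -2.60 to -2.54 with 1 library left out. With 1 library left out, the members called lower numbered 7 to 18 and those called higher 2 to 10, and for the 6 further lists 27 to 50 were lower and 21 to 47 higher. These fits hold 5 libraries in place of 6. Of 622 fold changes of single members under alternatives, 53 lost the call, 29 gained it and 540 stayed on their side of the threshold. Without any filter on low values, 29695 genes entered the fit, and 11 members were lower and 4 higher. The fit with the replicate number as a block called 12 members lower and 5 higher, and 38 and 33 of the further lists. Deviations of same-numbered libraries correlated at -0.043, 0.064 and 0.107, and those of differently numbered libraries at -0.122 to 0.063. With 3 libraries per group these values cannot show whether same-numbered libraries were paired. Voom on the recovered reads called 14 lower and 6 higher, and the length correction 15 and 8. The planned count models on recovered reads were not run, since the deposited unit is FPKM.

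In the 50% of each list highest in fold enrichment, member peaks numbered 58 in shCtrl and 51 in shNAT10, 18 members had a peak in both lists, and 23 and 22 peaks overlapped the other list, 39.7% of the shCtrl peaks. Among the 50% with the lowest p-values, 80 member peaks remained in shNAT10 and 51 shCtrl peaks overlapped. When an overlap had to take in 50% of each of the peaks, 40 in each list overlapped, 32.0% and 32.5%. These sets are smaller by construction. The depth of the acRIP libraries is unknown here.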

Other observations

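GM2A lies on chromosome 5, and 10 other tested genes lie within 500000 bases of it, a window chosen after the values had been seen. The nearest were not called: ANXA6 had a log2 fold change of 0.15, TNIP1 of -0.11 and CCDC69, whose bounds overlap those of GM2A on the other strand, of 0.11. Of the 10, 4 were lower, where 21.2% of all tested genes were, among them the lysosomal amino acid transporter SLC36A1 (6.56 ± 1.01 against 3.16 ± 0.0538 FPKM, log2 fold change -1.02, SE 0.12, limma adjusted p = 0.00094), and 1 was higher, where 20.8% of all tested genes were.

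The members called higher had longer transcripts (median 3952 nt, n = 6) than those called lower (3056 nt, n = 13) or not called (2549 nt, n = 20). Genes for which shCtrl replicate 2 was the lowest control library also had longer transcripts than those for which it was the highest (5157 against 2555 nt), and the part of this in the calls was not tested. With a correction for transcript length, 12 of the 13 genes called lower and 4 of the 6 called higher kept their calls, and LAMP1 and MANBA lost theirs.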
